A study of Homo sapiens with 10 samples.

Results

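The 7 chemokine genes described here were measured in NK-92, a human line established from a natural killer (NK) cell lymphoma. They are CCL3, CCL3L3, CCL4, CCL4L2 and CCL5 of the CC family and XCL1 and XCL2 of the XC family, chosen by symbol as the chemokine ligands typical of NK cells. All 7 were found among the 54628 gene symbols of the count table, and all 7 passed the filter on low counts that left 20125 genes for testing. The cells had been given 500 µM deferoxamine (DFO), an iron-chelating small molecule, or 10 µg/mL of the antibody PPMX-T003 (T003), which binds transferrin receptor 1. Cells of both agents were collected after 6 h and 24 h, and untreated cells at 0 h, which makes 5 groups of 2 libraries each. The design text of the series mentions the 24 h treatment, while the sample labels give 6 h and 24 h, and the labels were followed. All cultures shared the same medium with 2% human serum. No untreated cells were collected at 6 h or 24 h among the samples analysed here. Treatment and time in culture therefore cannot be told apart in any comparison with untreated cells, nor in those of 24 h with 6 h. The labels do not say whether the libraries of a group came from separate cultures, and the tests measure the spread between them, which may be technical.

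Chemokines are small secreted proteins that direct the movement of leukocytes through receptors coupled to G proteins. Resting NK cells hold transcripts of several of these genes, and activated NK cells secrete the proteins along with interferon gamma. CCL3 (MIP-1 alpha) and CCL5 (RANTES) act through CCR1, among other receptors, and CCL3L3 and CCL4L2 are near copies of CCL3 and of CCL4 (MIP-1 beta). These ligands attract monocytes, T cells and NK cells. XCL1 and XCL2 (lymphotactins) act through XCR1, which is best known on the dendritic cells that cross-present antigen. Many chemokine transcripts are short-lived and induced quickly by NF-kappaB, NFAT and AP-1 factors, whereas CCL5 is known for a slower and longer-lasting expression in T and NK cells.

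Levels are given as CPM, the usual unit of estimated counts scaled to library size, after TMM scaling between libraries. The libraries held 107117892 to 143575614 estimated counts each, and a count of 3 corresponded to at most 0.028 CPM, which covers counting error only. The 11 NK marker genes summed to 2773 to 3296 CPM in every group, with 10 or 11 of them above 1 CPM. In untreated cells most of that sum came from IL2RB (1033.5 CPM) and NKG7 (896 CPM). CD7 (2.97 CPM), TYROBP (1.93 CPM) and FCER1G (1.01 CPM) were low there. Markers of other cells were low, since B cell markers summed to at most 0.329 CPM with 5 of 6 genes at 0, and the 7 monocyte markers to at most 3.65 CPM. T cell markers summed to 472 to 516 CPM, mostly from CD3E at about 435 CPM in untreated cells, and only 4 of 10 exceeded 1 CPM. In bulk RNA, a change in the share of cells that make a transcript and a change in its amount per cell cannot be told apart.

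The 5 CC genes lie on chromosome 17 and the 2 XC genes on chromosome 1 (build hg38). CCL5 lies at chr17:35871491-35880360 on the minus strand. CCL3 at chr17:36088256-36090143 on the minus strand and CCL4 at chr17:36103827-36105614 on the plus strand are neighbours. Their near copies stand in the same arrangement farther along, with CCL3L3 at chr17:36194869-36196758 and CCL4L2 at chr17:36211063-36212873. XCL2 at chr1:168540768-168543997 on the minus strand and XCL1 at chr1:168576605-168582069 on the plus strand form the third pair. Each gene has 3 exons in its principal transcript.

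The coding sequences of CCL3 and CCL3L3 are shown because the counts of the pair depend on how far reads of 101 bases can tell the copies apart. They were read from the GENCODE v44 transcripts along the coding exons within chr17:36088672-36090058 (CCL3) and chr17:36195286-36196673 (CCL3L3), 5′ to 3′ on the minus strand. Capitals mark the bases at which the copies differ, 9 mismatches and a gap of 3 bases, which leaves 95.7% identity.
CCL3: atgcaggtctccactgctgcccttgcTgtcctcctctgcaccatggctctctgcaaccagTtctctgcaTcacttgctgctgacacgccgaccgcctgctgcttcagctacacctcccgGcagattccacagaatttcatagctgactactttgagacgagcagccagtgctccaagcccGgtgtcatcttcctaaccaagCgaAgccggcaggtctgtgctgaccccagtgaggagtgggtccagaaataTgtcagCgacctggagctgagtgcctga
CCL3L3: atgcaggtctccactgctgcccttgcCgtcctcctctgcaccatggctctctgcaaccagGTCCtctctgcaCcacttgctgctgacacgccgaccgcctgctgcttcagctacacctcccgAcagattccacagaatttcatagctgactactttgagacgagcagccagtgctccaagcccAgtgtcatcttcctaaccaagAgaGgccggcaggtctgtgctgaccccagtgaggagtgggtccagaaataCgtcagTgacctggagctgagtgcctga

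No stretch of 101 bases was shared between the 780-base CCL3 transcript and the 784-base CCL3L3 transcript. The CCL4 and CCL4L2 coding sequences differ at 7 bases (97.5% identity). Of the 560 windows of 101 bases in the CCL4 transcript, 44 (7.86%) also occur in CCL4L2.

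The XCL1 and XCL2 coding sequences, from chr1:168576638-168581220 on the plus strand and chr1:168540952-168543964 on the minus strand, differ at 5 bases (98.6% identity), all within the coding bases 46 to 345 shown here. Of the 462 windows in the XCL2 transcript, 24 (5.19%) also occur in XCL1.
XCL1: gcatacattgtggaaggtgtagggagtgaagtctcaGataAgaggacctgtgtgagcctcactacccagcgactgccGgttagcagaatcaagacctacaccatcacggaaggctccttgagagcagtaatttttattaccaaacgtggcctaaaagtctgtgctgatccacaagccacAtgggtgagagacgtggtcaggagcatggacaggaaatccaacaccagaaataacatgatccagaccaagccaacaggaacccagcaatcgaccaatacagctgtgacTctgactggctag
XCL2: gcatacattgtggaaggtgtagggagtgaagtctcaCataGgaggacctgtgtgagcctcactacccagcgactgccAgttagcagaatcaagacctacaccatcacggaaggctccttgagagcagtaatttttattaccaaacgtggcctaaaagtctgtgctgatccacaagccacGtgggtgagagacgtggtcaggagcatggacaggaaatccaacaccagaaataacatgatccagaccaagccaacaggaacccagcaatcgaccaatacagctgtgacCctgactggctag

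CCL3 was the most abundant of the 7 transcripts. After 24 h CCL3 stood at 1415 and 1526 CPM in DFO cells and at 1794 and 1779 CPM in T003 cells, against 984 and 767 CPM in untreated cells. Every 24 h library was above every untreated library. The fold change was 1.68 with DFO (log2 0.75, SE 0.083, edgeR quasi-likelihood adjusted p = 0.000363) and 2.04 with T003 (log2 1.03, SE 0.083, adjusted p = 3.39e-05). After 6 h CCL3 was at 786 and 792 CPM with DFO and at 833 and 841 CPM with T003, values that lay between the untreated libraries. By mean CPM, CCL3 ranked 36 of all genes in DFO cells at 24 h and 27 in T003 cells at 24 h, against 83 in untreated cells.

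CCL3L3, the near copy of CCL3, showed the widest change of the 7 genes at a far lower level. Its levels after 24 h were 44.3 and 49.8 CPM with DFO and 59.9 and 60.2 CPM with T003, against 31.2 and 17.4 CPM in untreated cells. The groups did not overlap, although the untreated libraries differed from each other by a factor of 1.80. CCL3L3 rose with DFO (log2 0.95, SE 0.19, adjusted p = 0.0118) and with T003 (log2 1.30, SE 0.19, adjusted p = 0.00118). At 6 h it stood at 20.5 and 20.4 CPM with DFO and at 21.6 and 22.1 CPM with T003, inside the untreated range.

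CCL4 rose in parallel with CCL3. It reached 192 and 205 CPM in DFO cells and 222 and 217 CPM in T003 cells at 24 h, against 147 and 92.8 CPM in untreated cells. All 4 libraries of 24 h stood above both untreated libraries. The log2 change was 0.73 with DFO (SE 0.14, adjusted p = 0.0126) and 0.87 with T003 (SE 0.14, adjusted p = 0.00265). Its copy CCL4L2 was the rarest member. CCL4L2 stood at 8.43 and 11.2 CPM in DFO cells and 9.01 and 6.93 CPM in T003 cells at 24 h, against 9.82 and 3.87 CPM in untreated cells. These ranges overlapped, and CCL4L2 did not pass the test with DFO (log2 0.52, SE 0.33, adjusted p = 0.464) or T003 (log2 0.22, SE 0.33, adjusted p = 0.782).

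CCL5 was the second most abundant member in counts and kept nearly the same level in all groups. At 24 h it measured 621 and 625 CPM with DFO and 666 and 673 CPM with T003, against 629 and 646 CPM in untreated cells. The DFO libraries lay just below the untreated libraries and the T003 libraries just above them. Neither difference passed the test, with a log2 change of -0.03 for DFO (SE 0.022, adjusted p = 0.511) and 0.07 for T003 (SE 0.022, adjusted p = 0.0620). The T003 difference did pass with DESeq2 (adjusted p = 0.0101) and with limma-voom (adjusted p = 0.0182).

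Both lymphotactins rose with either agent. XCL1 measured 75.5 and 80.4 CPM with DFO and 80.9 and 83.3 CPM with T003 at 24 h, against 60.2 and 49.7 CPM in untreated cells. XCL2 measured 97.2 and 103 CPM with DFO and 97.0 and 102.7 CPM with T003 at 24 h, against 78.9 and 68.7 CPM in untreated cells. For both genes the 24 h libraries stood above the untreated ones without overlap. The XCL1 change was 0.50 on the log2 scale with DFO (SE 0.069, adjusted p = 0.00143) and 0.58 with T003 (SE 0.069, adjusted p = 0.000394). The XCL2 change was 0.44 with DFO (SE 0.056, adjusted p = 0.000929) and 0.44 with T003 (SE 0.056, adjusted p = 0.000630).

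**Figure D1:**
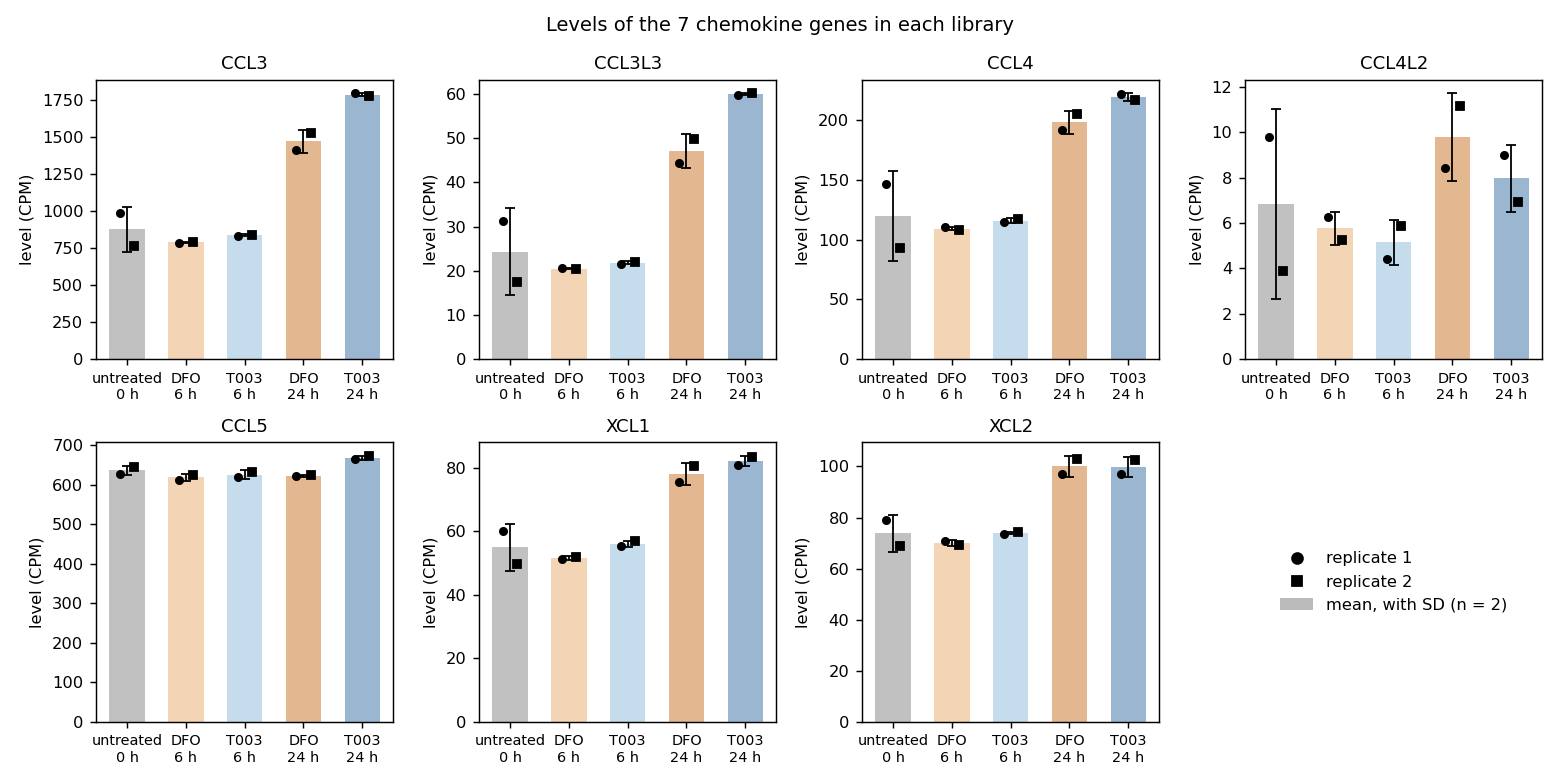
Levels (CPM, linear axis from 0) of the 7 chemokine genes in untreated cells and after 6 h and 24 h of DFO or T003; circles and squares are replicates 1 and 2, bars the mean and error bars the SD (n = 2). CCL3, CCL3L3, CCL4, XCL1 and XCL2 stand higher in all 24 h libraries than in both untreated libraries, while CCL5 stays between 614 and 673 CPM.

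Counted together, 5 of the 7 genes were higher with DFO at 24 h than in untreated cells, where 3.43% of all tested genes were called higher, and none was lower (3.27% of all tested genes). Their DFO libraries lay above the untreated ones without overlap for 5 of 7 (24.2% of all tested genes) and below them for 1 (25.1%), CCL5. With T003 at 24 h 5 of 7 were called higher (7.1% of all tested genes) and none lower (5.44%), and the libraries lay above the untreated ones without overlap for 6 of 7 (25.9%) and below them for none (26.9%). The median log2 change of the 7 genes was 0.52 with DFO and 0.58 with T003, beside a median over all tested genes of -0.0023 with DFO and -0.0069 with T003. Both comparisons share the 2 untreated libraries and are not independent of each other. The shares of all tested genes called also rest on single libraries. Without untreated replicate 2, 0.923% were called higher and 1.11% lower with DFO, and 3.12% higher and 1.98% lower with T003. Among the 10237 genes at or above a mean log2 CPM of 2, 4 had a larger log2 increase with T003 than CCL3, and 2 a larger one than CCL3L3. With DFO the corresponding numbers were 13 for CCL3 and 6 for CCL3L3.

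For each of the 7 genes, the untreated libraries differed from each other more than the replicates of any other group. In the members other than CCL5, untreated replicate 1 was above replicate 2, by a factor of 1.28 for CCL3, 1.58 for CCL4 and 2.53 for CCL4L2. For CCL3L3, 90.3% of all genes differed less between the untreated replicates, and for CCL5 27.2% did. Over all tested genes the log2 difference between the untreated replicates had an SD of 0.625, beside 0.661 to 0.685 in the other groups. That SD includes genes of low count, so it cannot show whether the untreated pair stands apart among well-expressed genes. Without untreated replicate 1 the DFO change of CCL3L3 was 1.44 and that of CCL4 1.10 on the log2 scale, and without untreated replicate 2 they were 0.60 and 0.44. Without untreated replicate 1, CCL4L2 also passed as higher with DFO (log2 1.34, adjusted p = 0.0109) and T003 (log2 1.04, adjusted p = 0.0246). Without replicate 2 of the DFO 24 h group, the DFO calls of CCL3L3 (adjusted p = 0.0842) and CCL4 (adjusted p = 0.0854) were lost. The same calls were lost when DFO 24 h and untreated cells were fitted alone, at adjusted p = 0.0715 for CCL3L3 and 0.074 for CCL4.

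After 6 h none of the 7 genes differed from untreated cells by the edgeR test. With DFO 0.0149% of all tested genes were called higher and 0.00994% lower, and with T003 0.0248% and 0.00497%. The libraries of DFO at 6 h lay above the untreated ones without overlap for 0 of 7 (21% of all tested genes) and below them for 1 (22%), CCL5, and those of T003 for 0 of 7 in either direction (19.5% and 19.8%). No member had an unadjusted p under 0.05 in either comparison, and limma-voom also called 0 of 7. DESeq2 called none either, but it gave no adjusted p for some members in these comparisons. The log2 changes lay between -0.25 and -0.04 with DFO and between -0.41 and 0.03 with T003. These values also rest on the untreated pair. Without untreated replicate 2, CCL3 (log2 -0.32, adjusted p = 0.0422), CCL3L3 (log2 -0.61, adjusted p = 0.0167) and CCL4 (log2 -0.43, adjusted p = 0.00864) were called lower with DFO. With T003 the same omission called CCL3L3 (log2 -0.51, adjusted p = 0.0392) and CCL4 (log2 -0.34, adjusted p = 0.0326) lower. Without untreated replicate 1 the sign of these genes turned and none passed. With DFO the log2 values were then 0.04 for CCL3 (adjusted p = 0.791), 0.24 for CCL3L3 (adjusted p = 0.512) and 0.24 for CCL4 (adjusted p = 0.346). With T003 they were 0.13 for CCL3 (adjusted p = 0.808), 0.33 for CCL3L3 (adjusted p = 0.518) and 0.33 for CCL4 (adjusted p = 0.0579).

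In the comparison of 24 h with 6 h within each agent, the untreated libraries entered the shared estimate of spread and the scaling but not the fold change. No untreated cells were collected at these times, so treatment and time in culture cannot be told apart here either. With DFO 5 of 7 genes were higher at 24 h than at 6 h, where 5.29% of all tested genes were called higher, and none was lower (4.6%). Without overlap, 6 of 7 were higher (24.8% of all tested genes) and none lower (25.1%). CCL3 rose by 0.90 on the log2 scale (SE 0.083, adjusted p = 7.36e-05), CCL3L3 by 1.20 (SE 0.19, adjusted p = 0.00239) and CCL4 by 0.86 (SE 0.15, adjusted p = 0.00364). XCL1 rose by 0.60 (SE 0.069, adjusted p = 0.000329) and XCL2 by 0.52 (SE 0.056, adjusted p = 0.000216). CCL5 stayed level at a log2 difference of 0.01 (SE 0.022, adjusted p = 0.885). CCL4L2, with libraries of 8.43 and 11.2 CPM at 24 h and 6.27 and 5.26 CPM at 6 h, did not overlap but did not pass (log2 0.77, adjusted p = 0.197). It passed without untreated replicate 1 (adjusted p = 0.0289), without untreated replicate 2 (adjusted p = 0.0272) and when the DFO groups were fitted alone (adjusted p = 0.0194).

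With T003 6 of 7 genes were higher at 24 h than at 6 h, where 7.55% of all tested genes were called higher, and none was lower (5.93%). Without overlap, 7 of 7 were higher (26.4% of all tested genes) and none lower (26.5%). The largest differences were again those of CCL3L3 (log2 1.46, SE 0.19, adjusted p = 0.000519), CCL3 (log2 1.09, SE 0.083, adjusted p = 1.55e-05) and CCL4 (log2 0.92, SE 0.14, adjusted p = 0.00169). XCL1 rose by 0.55 (SE 0.069, adjusted p = 0.000420) and XCL2 by 0.43 (SE 0.056, adjusted p = 0.000510). CCL5 was the sixth, at 666 and 673 CPM after 24 h against 619 and 634 CPM after 6 h, a log2 difference of 0.10 (SE 0.022, adjusted p = 0.0151). That small difference lost its call without T003 6 h replicate 1 (adjusted p = 0.185), T003 24 h replicate 1 (adjusted p = 0.0849) or T003 24 h replicate 2 (adjusted p = 0.131). CCL4L2 was at 9.01 and 6.93 CPM after 24 h and at 4.43 and 5.85 CPM after 6 h, and did not pass (log2 0.63, SE 0.33, adjusted p = 0.279). It passed when the T003 groups were fitted alone (adjusted p = 0.0371).

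**Figure D2:**
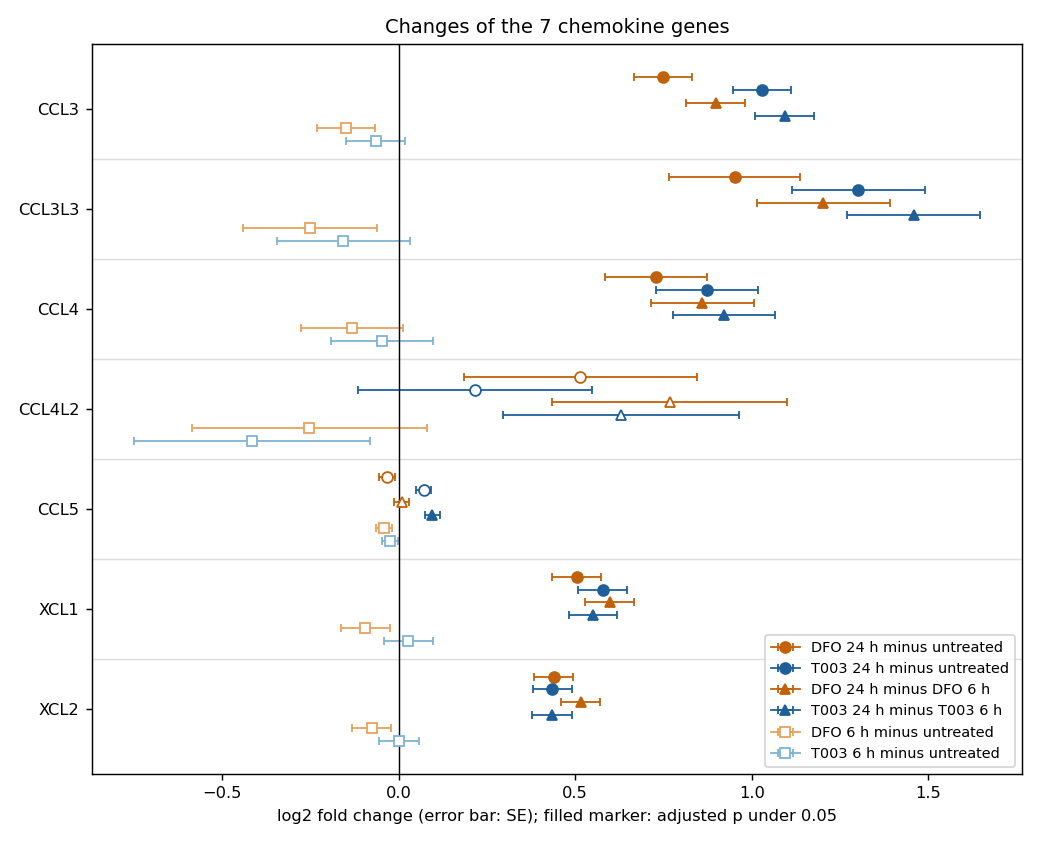
Fold changes (log2 scale) of the 7 genes in 6 comparisons, with error bars of 1 SE; filled markers passed the edgeR test at an adjusted p under 0.05. The 24 h markers of CCL3, CCL3L3 and CCL4 lie between 0.73 and 1.46, those of XCL1 and XCL2 between 0.43 and 0.60, those of CCL5 near 0, and all 6 h markers are open.

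DFO and T003 were compared at matched times over 7 genes at 24 h and 7 at 6 h, with p-values adjusted over all tested genes of a comparison. At 24 h none of the 7 genes passed, where 0.457% of all tested genes were called higher with DFO and 0.884% lower. The libraries of DFO were below those of T003 without overlap for 5 of 7 genes, where 22.5% of all tested genes showed the same, and above them for none (21.4%). CCL3 was lower with DFO by 0.28 on the log2 scale (difference -0.28, 95% interval -0.46 to -0.10, unadjusted p = 0.00599, adjusted p = 0.138). CCL5 differed by -0.10 (95% interval -0.15 to -0.05, unadjusted p = 0.000738, adjusted p = 0.0516). These 2 genes were the members with an unadjusted p under 0.05. DESeq2 called CCL5 lower with DFO (adjusted p = 0.000188), and so did limma-voom (adjusted p = 0.0181).

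The other differences between the agents at 24 h had wide intervals or centred near 0. The interval of CCL3L3 ran from -0.75 to 0.05 and that of CCL4 from -0.46 to 0.17. XCL1 ran from -0.22 to 0.08, XCL2 from -0.12 to 0.13 and CCL4L2 from -0.43 to 1.02. Intervals that hold 0 leave differences of those sizes possible and do not show that the agents acted alike. CCL3 passed as lower with DFO when the 24 h groups were fitted alone (adjusted p = 0.0346), without untreated replicate 1 (adjusted p = 0.00696) and without untreated replicate 2 (adjusted p = 0.00996). CCL3L3 passed without untreated replicate 1 (adjusted p = 0.0225) or 2 (adjusted p = 0.0236). At 6 h no member passed, where 0% of all tested genes were called in either direction, none had an unadjusted p under 0.05, and DESeq2 and limma-voom called 0 of 7. The libraries of DFO at 6 h were below those of T003 without overlap for 5 of 7 genes (17.7% of all tested genes) and above them for none (17.8%).

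In total, the 7 genes took 0.245% and 0.259% of all counts with DFO at 24 h and 0.290% and 0.290% with T003 at 24 h, against 0.194% and 0.165% in untreated cells. CCL3 held most of this gain. Its share of the summed CPM of the 7 genes was 57.7% and 58.7% with DFO and 61.3% and 60.9% with T003 at 24 h, against 50.7% and 46.6% in untreated cells. The share of CCL5 was 25.3% and 24.0% with DFO and 22.7% and 23.0% with T003, against 32.4% and 39.2% in untreated cells. Per kilobase of the principal transcript, CCL3 stood at 1885 ± 101 CPM with DFO and 2290 ± 13.7 CPM with T003 at 24 h, against 1122 ± 197 CPM in untreated cells (SD, n = 2). In untreated cells the order by CPM per kilobase was CCL3, CCL5 (523.5 ± 9.82), CCL4 (181.3 ± 57.5), XCL2 (131.3 ± 12.9), XCL1 (44.8 ± 6.05), CCL3L3 (31.0 ± 12.5) and CCL4L2 (10.3 ± 6.3). CCL4 and XCL2 differed by less than the SD of CCL4 in untreated cells, and XCL1 and CCL3L3 by little more than the SD of CCL3L3. With T003 at 24 h CCL3L3, at 76.6 ± 0.267 CPM per kilobase, was above XCL1 at 66.9 ± 1.38. This order depends on the transcript lengths, which are 562 bases for XCL2 and 1227 bases for XCL1.

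CCL3L3 held 3.04% and 3.16% of the CCL3 and CCL3L3 counts with DFO at 24 h and 3.23% and 3.27% with T003 at 24 h, against 3.08% and 2.22% in untreated cells. At 6 h the share was 2.55% and 2.51% with DFO and 2.53% and 2.56% with T003, below every 24 h library. XCL2 held 56.3% and 56.2% of the lymphotactin counts with DFO at 24 h and 54.5% and 55.2% with T003 at 24 h, against 56.7% and 58.0% in untreated cells. At 6 h it held 58.1% and 57.1% with DFO and 57.1% and 56.6% with T003, above every 24 h library. CCL4L2 held 4.22% and 5.16% of the CCL4 and CCL4L2 counts with DFO at 24 h and 3.90% and 3.09% with T003 at 24 h, against 6.28% and 4.01% in untreated cells. The T003 libraries at 24 h lay below the untreated and the DFO libraries at 24 h without overlap, while those of DFO at 24 h overlapped the untreated ones. At 6 h CCL4L2 held 5.38% and 4.63% with DFO and 3.73% and 4.74% with T003. The T003 libraries at 24 h overlapped those of T003 at 6 h. No test of these shares was made. With the counts of each pair summed before the fit, CCL3, CCL4 and the lymphotactins kept their calls. At 24 h against untreated cells the CCL3 pair changed by 0.75 with DFO (adjusted p = 0.000418) and 1.04 with T003 (adjusted p = 3.99e-05). The CCL4 pair changed by 0.72 with DFO (adjusted p = 0.0176) and 0.85 with T003 (adjusted p = 0.00437), and the lymphotactin pair by 0.47 with DFO (adjusted p = 0.000889) and 0.50 with T003 (adjusted p = 0.000384). CCL3L1 and CCL4L1, further copies of the family, were listed at 0 in all libraries.

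**Figure D3:**
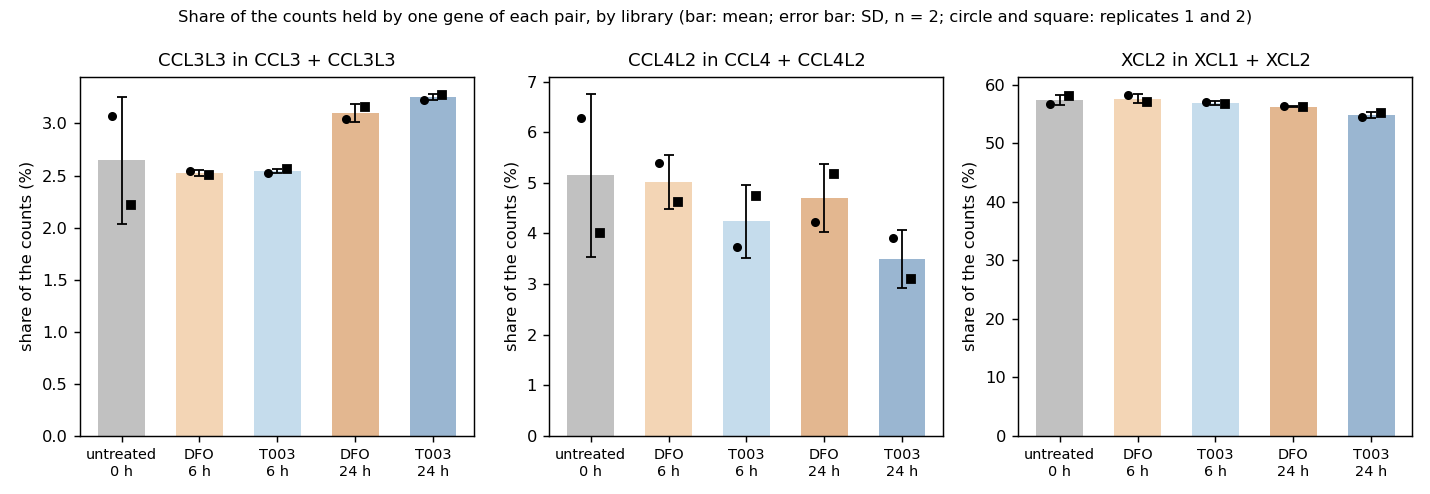
Share of the counts of each pair of near copies (%, linear axis from 0) held by CCL3L3, CCL4L2 and XCL2 in each library; bars are the mean, error bars the SD (n = 2). The CCL3L3 share lies between 2.22% and 3.27%, the CCL4L2 share between 3.09% and 6.28%, and the XCL2 share between 54.5% and 58.1%.

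The antisense gene CCL3-AS1 overlaps CCL3 on the opposite strand, and the labels and notes do not say whether strand was used in counting. It was at most 0.797% of the CCL3 level and moved the other way, at 4.80 ± 0.168 CPM with DFO and 4.60 ± 0.344 CPM with T003 at 24 h, against 5.79 ± 0.463 CPM in untreated cells (SD, n = 2). That difference did not pass for DFO (log2 -0.27, adjusted p = 0.151) or T003 (log2 -0.33, adjusted p = 0.0529). Limma-voom called the T003 difference (adjusted p = 0.0461). At 24 h against 6 h, CCL3-AS1 passed the edgeR test as lower with T003 but not with DFO (log2 -0.32, adjusted p = 0.0721). The T003 call was lost with the compared groups alone (log2 -0.38, edgeR adjusted p = 0.0613). It was also lost when either replicate of T003 6 h or of T003 24 h was left out, with log2 changes from -0.46 to -0.30. The pseudogenes RPL7AP21 and RPL7AP19 overlap XCL1 and XCL2 and reached at most 3.65% and 2.32% of the level of the gene they overlap.

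Promoter sequences from RefSeq (GRCh38.p14) were matched for 3 of the 7 members, CCL3, CCL3L3 and XCL2. The 200 bases upstream of the start sites of CCL3 (chr17:36090144-36090343) and CCL3L3 (chr17:36196759-36196958) are shown because the 2 genes moved together, 5′ to 3′ on the minus strand. Capitals mark the bases that differ between them. Over 250 upstream bases they were 91% identical, with 11 mismatches and 12 gap bases.
CCL3: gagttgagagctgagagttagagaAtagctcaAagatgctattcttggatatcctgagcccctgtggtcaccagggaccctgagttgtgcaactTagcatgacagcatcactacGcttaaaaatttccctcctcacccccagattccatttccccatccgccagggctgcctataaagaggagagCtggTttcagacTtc
CCL3L3: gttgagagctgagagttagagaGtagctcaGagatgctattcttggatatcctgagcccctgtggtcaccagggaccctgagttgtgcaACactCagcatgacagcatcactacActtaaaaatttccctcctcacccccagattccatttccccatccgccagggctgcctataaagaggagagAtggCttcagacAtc

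Both promoters hold the letters TATAAA at position -29 from the start site, XCL2 does not, and 11.6% of 34943 promoters of the same 300-base window hold them. GGAAA, the core of NFAT sites, occurs in all 3 promoters and in 61.2% of all promoters. TGANTCA (AP-1, 7.72% of all promoters) and TGACGTCA (CRE, 1.84%) were found in none of the 3. Both strands were searched, and a match of letters is not a binding site.

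Of 10208 genes compared, the 6 whose log2 CPM was most like the mean standardized profile of the members were LOC100420851 (Pearson r = 0.994), PDE4A (0.992), PER2 (0.989), IFNG (0.989), MYC (0.988) and TOB2 (0.987). The likeness is over 10 libraries that share groups, with the 24 h libraries apart from the rest, and is a description. IFNG encodes interferon gamma, PDE4A a phosphodiesterase that degrades cyclic AMP, PER2 a clock protein, MYC a transcription factor of growth and TOB2 an antiproliferative protein. IFNG was at 12.8 ± 0.717 CPM with DFO and 15.8 ± 0.704 CPM with T003 at 24 h, against 7.17 ± 1.62 CPM in untreated cells (SD, n = 2). MYC was at 657 ± 32.8 CPM with DFO and 723 ± 10.8 CPM with T003 at 24 h, against 556 ± 31.8 CPM in untreated cells. These genes were picked for their likeness, so no test of them is given.

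**Figure D4:**
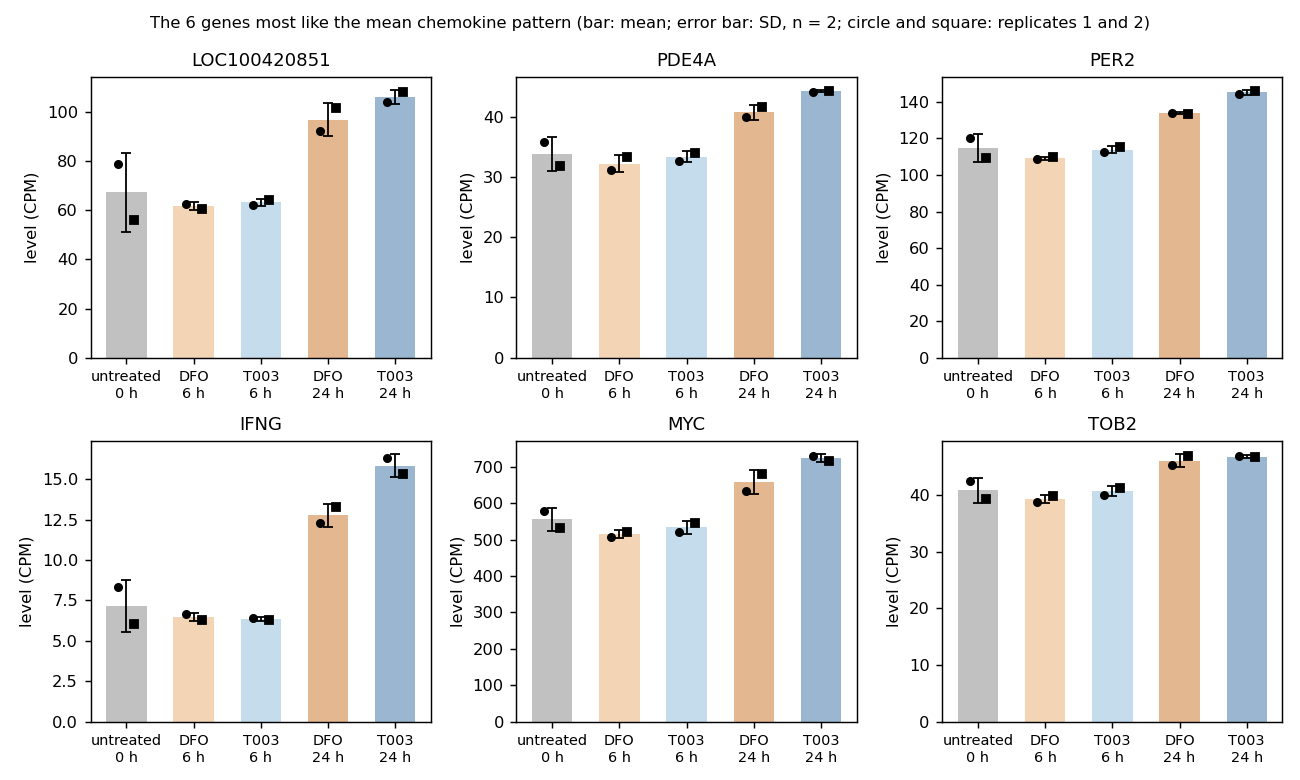
Levels (CPM, linear axes from 0) of the 6 genes whose profile over the 10 libraries was most like the mean profile of the chemokine genes; bars are the mean, error bars the SD (n = 2). In each panel the 4 libraries of 24 h stand above the libraries of untreated cells and of 6 h.

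Of the receptors of these ligands, CCR1 and XCR1 are described. CCR1, a receptor for CCL3 and CCL5, was at 24 h at 119 ± 0.287 CPM with DFO and 127 ± 2.08 CPM with T003, against 104 ± 5.85 CPM in untreated cells. Its log2 change was 0.20 with DFO (SE 0.039, adjusted p = 0.0116) and 0.29 with T003 (SE 0.039, adjusted p = 0.000786). The DFO call of CCR1 was lost without untreated replicate 2 (adjusted p = 0.0922) or DFO 24 h replicate 2 (adjusted p = 0.0673). XCR1, the receptor of the lymphotactins, stayed between 13.3 and 16.7 CPM in all libraries.

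NK-92 made few other chemokines. Of 41 further ligand genes, 29 were at 0 in all libraries and 3 passed the filter. CCL18, a ligand known mainly from macrophages and dendritic cells, was at 2.49 ± 0.261 CPM with DFO and 2.93 ± 0.317 CPM with T003 at 24 h, against 4.15 ± 0.155 CPM in untreated cells. It was lower with DFO (log2 -0.73, SE 0.12, adjusted p = 0.00518) and with T003 (log2 -0.50, SE 0.12, adjusted p = 0.0217). The DFO call was lost without DFO 24 h replicate 1 (adjusted p = 0.0577). The T003 call was lost without untreated replicate 1 (adjusted p = 0.113), untreated replicate 2 (adjusted p = 0.0879) or T003 24 h replicate 2 (adjusted p = 0.166). CCL16 and CXCL17, the other ligands tested, had group means of at most 0.0744 CPM, so no median over the ligands is given.

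Among 7 genes that handle chemokine transcripts and proteins, 3 were higher with DFO at 24 h (3.43% of all tested genes) and 4 with T003 (7.1%). None was lower with DFO (3.27%) or T003 (5.44%). The ZFP36 family binds AU-rich elements of short-lived transcripts and speeds their decay. ZFP36 changed by 0.27 with DFO (adjusted p = 0.0284) and 0.37 with T003 (adjusted p = 0.00350), ZFP36L1 by 0.21 with DFO (adjusted p = 0.0191) and 0.39 with T003 (adjusted p = 0.000385), and ZFP36L2 by 0.29 with DFO (adjusted p = 0.0177) and 0.46 with T003 (adjusted p = 0.000771). SRGN, the core proteoglycan of secretory granules, was higher with T003 (log2 0.15, adjusted p = 0.00195). The DFO calls of the ZFP36 genes were lost without untreated replicate 2 (adjusted p = 0.243, 0.172 and 0.176) and without DFO 24 h replicate 2 (adjusted p = 0.215, 0.098 and 0.149), in the order ZFP36, ZFP36L1, ZFP36L2. Without DFO 24 h replicate 1, ZFP36L1 was lost as well (adjusted p = 0.0769). The median log2 change of the 7 genes was 0.07 with DFO and 0.15 with T003, beside -0.0023 and -0.0069 over all tested genes.

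Of 28 transcription factors and inhibitors with roles at chemokine genes, 27 were tested. At 24 h against untreated cells the median log2 changes were -0.02 with DFO and 0.04 with T003, beside -0.0023 and -0.0069 over all tested genes. With DFO 4 were higher (3.43% of all tested genes) and 6 lower (3.27%). With T003 8 were higher (7.1% of all tested genes) and 4 lower (5.44%). These counts rest on single libraries. Without untreated replicate 2, of 28 then tested, 1 was higher and 4 lower with DFO, and 2 were higher and 2 lower with T003. Without DFO 24 h replicate 1 the DFO counts were 1 higher and 6 lower, and without DFO 24 h replicate 2 they were 1 higher and 5 lower. Without T003 24 h replicate 1 the T003 counts were 2 higher and 2 lower, and without T003 24 h replicate 2 they were 6 higher and 2 lower. PRDM1 (BLIMP-1), a transcriptional repressor active in effector lymphocytes, rose by 0.35 with DFO (SE 0.044, adjusted p = 0.000849) and 0.51 with T003 (SE 0.044, adjusted p = 4.93e-05). BHLHE40 changed by -0.38 with DFO (SE 0.028, adjusted p = 2.7e-05) and -0.19 with T003 (SE 0.028, adjusted p = 0.00124). KLF13, known as an activator of CCL5 in T cells, changed by -0.23 with DFO (SE 0.024, adjusted p = 0.000245) and -0.15 with T003 (SE 0.024, adjusted p = 0.00200). RUNX3 also passed as lower with DFO, and JUNB, TBX21 and NFKB1 passed as higher. The NFKB1 call was lost with the compared groups alone (edgeR adjusted p = 0.0972). RUNX3, JUNB, TBX21 and NFKB1 all lost the DFO call without untreated replicate 2 and without DFO 24 h replicate 2. Without untreated replicate 2 their log2 changes were -0.16, 0.32, 0.12 and 0.09, in that order. JUNB, TBX21 and NFKB1 lost it without DFO 24 h replicate 1 as well, and TBX21 and NFKB1 also without some libraries of other groups. With DFO, EOMES (log2 -0.19, adjusted p = 0.000902), NFATC2 (log2 -0.20, adjusted p = 0.00214) and IKZF3 (log2 -0.16, adjusted p = 0.00340) were also lower. The IKZF3 call was lost without untreated replicate 2 (adjusted p = 0.0557).

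EOMES and IKZF3 passed as lower with T003 as well, and TBX21 and NFKB1 as higher. The T003 call of IKZF3 was lost with the replicate number as a block (log2 -0.09, edgeR adjusted p = 0.0554). EOMES, IKZF3, TBX21 and NFKB1 all lost the T003 call without untreated replicate 2 and without T003 24 h replicate 1. Without untreated replicate 2 their log2 changes were -0.10, -0.07, 0.16 and 0.10, in that order. EOMES, IKZF3 and NFKB1 lost it without T003 24 h replicate 2 as well, and IKZF3 also without untreated replicate 1 or T003 6 h replicate 2. With T003, IRF4 (log2 0.19, adjusted p = 0.000545), FOSL2 (log2 0.16, adjusted p = 0.00482) and JUNB (log2 0.43, adjusted p = 0.00581) were also higher. FOSL2 and JUNB lost that call without untreated replicate 2 (adjusted p = 0.052 and 0.0729) or T003 24 h replicate 1 (adjusted p = 0.0575 and 0.0655). Between the agents at 24 h, 5 of the 27 were lower with DFO (0.884% of all tested genes) and none higher (0.457%). They were BHLHE40 (log2 -0.19, adjusted p = 0.0120), IRF4 (log2 -0.14, adjusted p = 0.0217), FOSL2 (log2 -0.17, adjusted p = 0.0250), NFATC2 (log2 -0.16, adjusted p = 0.0321) and JUN (log2 -0.25, adjusted p = 0.0386). Without any 1 of the 24 h libraries, none of the list passed between the agents. Each of these 5 calls was lost without at least 4 of the 10 libraries left out in turn, with adjusted p up to 0.238.

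Some NK marker genes and stress genes also passed the test at 24 h, and their part in the chemokine values was not tested. Of the 11 NK marker genes, 2 were higher (IL2RB and PRF1) and 1 lower (KLRD1) with DFO at 24 h than in untreated cells. With T003, 4 were higher (IL2RB, GZMB, PRF1 and GNLY) and 1 lower (KLRD1). Of all tested genes, 3.43% were called higher and 3.27% lower with DFO, and 7.1% higher and 5.44% lower with T003. The marker sum was 3048 to 3075 CPM with DFO and 3261 to 3296 CPM with T003 at 24 h, against 2907 to 2944 CPM in untreated cells. Between the agents at 24 h, 4 of the 11 were lower with DFO (0.884% of all tested genes) and none higher (0.457%). They were IL2RB, PRF1, GZMB and GNLY. All but GZMB lost that call with the replicate number as a block, with the compared groups alone and without any 1 of the 24 h libraries. GZMB (granzyme B) was at 243 ± 5.10 CPM with DFO and 298 ± 2.97 CPM with T003 at 24 h, a log2 difference of -0.29 (SE 0.034, edgeR adjusted p = 0.00546). That call was lost without DFO 24 h replicate 1 (adjusted p = 0.0553), T003 24 h replicate 1 (adjusted p = 0.0532) or T003 24 h replicate 2 (adjusted p = 0.0798). The DFO call of PRF1 was lost without untreated replicate 2 (adjusted p = 0.197), DFO 24 h replicate 1 (adjusted p = 0.0513) or DFO 24 h replicate 2 (adjusted p = 0.153). The 7 RNA quality and stress genes summed to 634 to 649 CPM with DFO and 625 to 633 CPM with T003 at 24 h, against 675 to 683 CPM in untreated cells. With DFO 1 of them was higher (3.43% of all tested genes) and 1 lower (3.27%), and with T003 1 was lower (5.44%). The higher one was HSPA6, an inducible heat shock protein, at 37.2 ± 0.806 CPM with DFO at 24 h, against 32.5 ± 1.99 CPM in untreated cells (SD, n = 2 each). Its log2 change of 0.20 (adjusted p = 0.0374 by edgeR) lost the call without 7 of the 10 libraries left out in turn, with adjusted p up to 0.312. DNAJB1, a heat shock cochaperone, was lower with DFO (log2 -0.29, adjusted p = 0.00162) and T003 (log2 -0.40, adjusted p = 0.000139).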

How the data were processed

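RNA was measured in 10 NK-92 libraries, grouped by the sample labels. The submitters' processing notes name fastp 0.21.0 for trimming, HISAT2 2.2.1 for alignment (hg38) and StringTie 2.1.6 for counting, in the roles that the design text gives. The authors deposited estimated counts per gene symbol, not normalized, and all are whole numbers. Library totals ran from 107117892 to 143575614, and intervals or floors from counts cover counting error only.

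The main test was edgeR 4.0.16 in R 4.3.3 (glmQLFit and glmQLFTest) with group as its only term, TMM scaling, filterByExpr with a minimum count of 10, and Benjamini-Hochberg adjustment over 20125 genes at a threshold of 0.05. The model had 5 residual degrees of freedom, and the script was checked on simulated counts. SE was taken as log2 fold change over the root of the F statistic. The members, lists and alternatives were chosen with earlier results of these data known. All 7 members are named, and of each list the called genes with the smallest p, up to 6. Some further called transcription factors are named without their main values. LOC100420851 was not matched in the annotation used here.

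Alternatives were RLE scaling, no filter, DESeq2 1.42.0, limma-voom (limma 3.58.1), the replicate number as a block, the compared groups alone, near copies summed, and each library left out in turn. Coding sequences and lengths are from GENCODE v44, promoters from RefSeq (GRCh38.p14). The 10 correlations of replicate differences between groups, over all tested genes, ran from -0.0521 to 0.0125. They include genes of low count, so they cannot exclude that the replicate numbers pair the samples. Some receptor and sequence results are not reported here.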

Additional observations from a re-analysis of the deposited data

How the results depend on the processing

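Of 924 values of the 7 genes under 17 alternatives, 897 kept their side of the test's threshold, and no called value reversed. DESeq2 gave no adjusted p for 4 further values, which were left out. Of the members called, DFO at 24 h against untreated cells had 5 of 7, but 3 of 7 with the compared groups alone and 3 of 4 with near copies summed. The sum also gave 3 of 4 for T003 at 24 h and for DFO at 24 h against 6 h, since copies then count once. DFO against T003 at 24 h had 0 called, but 1 with DESeq2, 1 with limma-voom and 1 with the compared groups alone.

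With each library left out in turn, the number of members called ranged from 3 to 6 for DFO at 24 h, from 5 to 6 for T003 at 24 h, from 0 to 3 for DFO at 6 h and from 0 to 2 for T003 at 6 h, each against untreated cells. It ranged from 0 to 2 for DFO against T003 at 24 h, was 0 at 6 h, and ranged from 5 to 6 for 24 h against 6 h with either agent. A group left with 1 library was assumed to vary like the others. The log2 change of CCL4L2 ranged from 0.0027 to 1.34 with DFO and from -0.30 to 1.04 with T003 at 24 h. The replicate block changed no call of a member, with 5 members called for DFO and 5 for T003 at 24 h, and it ended the JUN (adjusted p = 0.0573) and NFATC2 (adjusted p = 0.0552) calls between the agents and the HSPA6 call with DFO at 24 h (adjusted p = 0.0591; 0.0947 with the compared groups alone). It called 117 genes between the agents at 24 h, against 270 without the block, 55 with the compared groups alone and 843 with DESeq2. For DFO at 24 h, 851 genes were called with the compared groups alone, against 1349 in the model of all groups. Counts over all genes also rest on single libraries. With each left out in turn, DFO at 24 h against untreated cells had 431 to 1383 genes, with 431 without untreated replicate 2, 529 without DFO 24 h replicate 2 and 781 without DFO 24 h replicate 1. T003 at 24 h had 1084 to 2544 genes, against 2524 with all libraries, with 1084 without untreated replicate 2, 1675 without untreated replicate 1, 1312 without T003 24 h replicate 1 and 1373 without T003 24 h replicate 2. Between the agents at 24 h it was 14 to 229, with 14 to 41 without a 24 h library and 95 and 96 without a T003 6 h library. At 6 h, 5 genes were called for DFO, against 456 with DESeq2, and 6 for T003, against 73 with DESeq2.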
